A study of Mus musculus with 24 samples.

Results

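Short copy number segments, those spanning less than 1 Mb of an autosome, were collected from shallow whole genome sequencing of murine adrenal glands and neuroblastoma tumours. The segments were chosen by their length, a measured value, as every segment on Chr 1 to Chr 19 whose end minus start plus 1 was below 1000000 bases. This gave 395 of 1485 segments, carried by 21 samples. All values are median log2 ratios to wildtype adrenal glands, so 0 stands for the level of this reference. That level is read here as the 2 copies of an autosome. The reference has no values of its own, so this could not be checked at single sites. Ratios from 0.3 upwards were counted as gains and ratios down from -0.4 as losses.

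The 21 samples comprised 5 adrenal glands with a MYCN transgene (AGM, labelled MYCN fl/wt, CRE +), 8 tumours with an IGF2BP1 transgene (TI) and 8 tumours with both transgenes (TIM, labelled IMP1/MYCN, CRE +). TI 1 is labelled IGF2BP1 +/-, CRE + and the other 7 TI tumours IGF2BP1 +/+, CRE +. The reference consisted of 3 CRE - adrenal glands (AG), which have no values of their own. Transgenes were integrated at Rosa26 and switched on by an iCRE recombinase driven by Dbh, the dopamine beta-hydroxylase gene of noradrenergic cells, and samples are named by group and replicate number. The labels used here give no age, but the paper describes different ages at culling for the genotypes. Effects of age and genotype therefore cannot be told apart. Against AGM, the same holds for tumour and genotype. The labels place TI 6, TIM 1 and TIM 5 in the adrenal gland.

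Titles starting with SH belong to all 3 AG and to 7 of 8 TI, and titles starting with AGH belong to TI 8, all 5 AGM and all 8 TIM. The labels do not explain these prefixes. Where TI is compared with AGM or TIM, an effect of the genotype and one of the title series cannot be told apart. No matched normal DNA of the same animal was analysed here, so inherited and acquired differences cannot be told apart either. The methods describe a low genome coverage, the number of reads per sample or segment is not given in the sources used here, and no interval that needs it is given.

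Short copy number differences in mice are known to gather where closely related sequences lie side by side, because such copies can recombine unequally. Gene families of this kind include the variable genes of the T cell receptor, zinc finger genes, defensins of the innate immune defence and genes of the major histocompatibility complex. Read depth in such stretches also depends on how reads with several possible origins are placed. The following 60-base stretches are the most frequent ones within 5 such regions of the reference (mm39, the build of the files, read from GRCm39) and are shown because short segments described below lie in these repeated sequences. Capitals mark the 11 bases that the Chr 5 and the Chr 13 sequence share, both from zinc finger gene clusters.
Chr 5, chr5:110090069-110090128, plus strand: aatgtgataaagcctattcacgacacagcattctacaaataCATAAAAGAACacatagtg
Chr 13, chr13:65660134-65660193, plus strand: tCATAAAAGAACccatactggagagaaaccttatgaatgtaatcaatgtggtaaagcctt
Chr 14, chr14:43153442-43153501, plus strand: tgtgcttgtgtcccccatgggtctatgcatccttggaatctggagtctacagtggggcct
Chr 4, chr4:42025425-42025484, plus strand: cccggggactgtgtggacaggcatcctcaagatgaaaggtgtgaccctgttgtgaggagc
Chr 8, chr8:19809814-19809873, plus strand: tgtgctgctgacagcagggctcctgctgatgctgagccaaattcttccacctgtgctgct

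The Chr 5 sequence occurred 3 times on its chromosome, all within the lost stretch. The Chr 13 sequence occurred 68 times on its chromosome, with 11 copies in the short gain and 34 in the neighbouring short loss. The Chr 14 sequence had 4 copies in the short loss that holds it and 10 on the chromosome. The Chr 4 sequence was found 4 times within the core of the short segments there and 24 times on the chromosome. The Chr 8 sequence, from a defensin cluster, was found 184 times in a stretch of 2720 kb and 185 times on the chromosome. Exact matches on either strand were counted, and overlapping matches were included.

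Losses were the most frequent short segments. Of the 395, 201 were losses, 85 were gains and 109 lay between the thresholds. Of all 1485 segments in the table, 28.7% were past a threshold (13.9% as gains and 14.7% as losses), compared with 72.4% of the short segments and 12.8% of the 1090 longer ones. Nearly every called loss of the series was short, namely 91.8% of 219, whereas 41.1% of 207 gains were short. Lengths ran from 40 to 980 kb with a median of 200 kb, and 201 segments were at most 200 kb long. Close to the length limit, 6 segments lay at most 100 kb below it with log2 ratios from -0.99 to 0.23, and 8 lay less than 100 kb above it with log2 ratios from -0.87 to 0.75. The shortest segment left out was 1000 kb long.

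**Figure D1:**
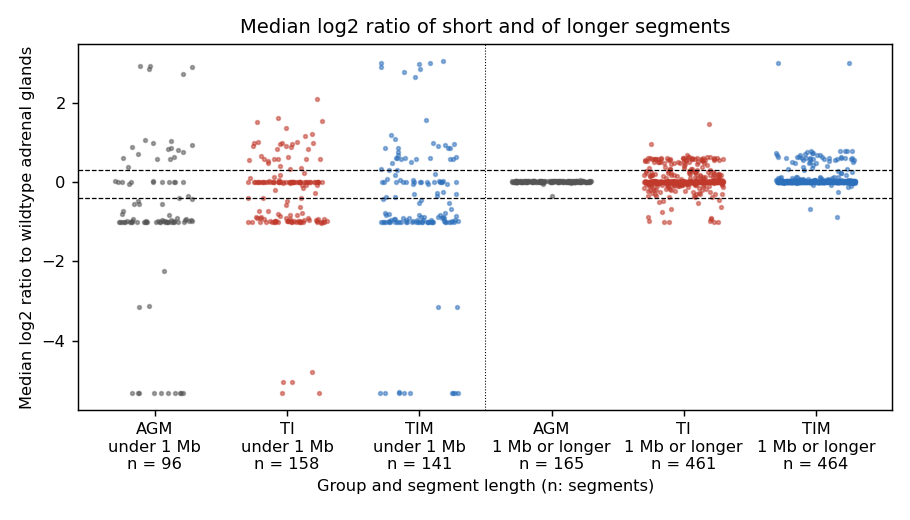
Median log2 ratio of every autosomal segment (points, spread sideways at random), split by group and by length below or above 1 Mb, with dashed lines at the thresholds of 0.3 and -0.4. Short losses crowd near -1 in all groups, and short segments of 0 copies number 13 in AGM, 12 in TIM and 5 in TI.

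Many short losses sat at a single copy. The log2 ratio was translated into copies as 2 times 2 to the power of the ratio. Among losses, 122 of 201 (60.7%) lay within 0.05 copies of 1 copy. The median loss had a log2 ratio of -1.00, or 1.00 copies. Rounded to whole copies, 168 short segments had 1 copy, 30 had 0 copies, 113 had 2, 34 had 3, 29 had 4, 3 had 5 and 4 had 6. The remaining 14 lay above 8 copies. The lowest ratio in the table, -5.32, stands for 0.05 copies and is a lower limit of the values, so the depth of a complete loss is not resolved.

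The number of short segments overlapped among the 3 groups. AGM 1 to AGM 5 carried 19, 24, 21, 17 and 15. TI tumours carried 12 to 36 with a median of 18.5, and TIM tumours 13 to 22 with a median of 17. Only TI 1, with 36, lay above 24. No difference was detected between TI and AGM (exact permutation test of the rank sum, two-sided, p = 0.803), TIM and AGM (exact permutation p = 0.497) or TI and TIM (exact permutation p = 0.699). After Benjamini-Hochberg (BH) adjustment over 12 comparisons of counts the values were 0.876, 0.746 and 0.839.

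**Figure D2:**
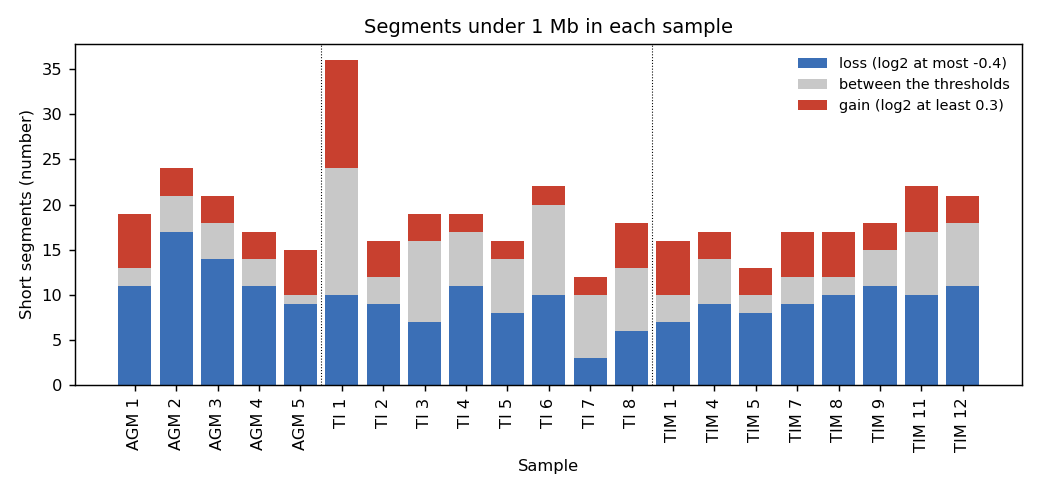
Number of segments under 1 Mb in each of the 21 samples, stacked by loss, neither and gain, with dotted lines between AGM, TI and TIM. TI 1 stands apart with 36 segments, and AGM adrenal glands carry as many short losses as tumours or more.

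Adrenal glands without tumours carried as many short losses as tumours. AGM 1 to AGM 5 had 11, 17, 14, 11 and 9, TI tumours 3 to 11 with a median of 8.5, and TIM tumours 7 to 11 with a median of 9.5. TI was lower than AGM in 34 of 40 pairs of samples (exact permutation p = 0.0202), which did not hold after adjustment over the 12 comparisons (adjusted p = 0.242). Without AGM 2 the exact permutation p was 0.0586, and without AGM 3 it was 0.0586. For TIM the exact permutation p was 0.0567 (30 of 40 pairs lower than AGM), and 0.340 after adjustment. Without AGM 5 the exact permutation p for TIM was 0.0222, unadjusted.

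Short gains numbered 3 to 6 in AGM with a median of 3, 2 to 12 in TI with a median of 2.5, and 3 to 6 in TIM with a median of 4. TI 1 was the highest with 12. No difference between groups was detected (exact permutation p = 0.297 for TI against AGM, 1 for TIM against AGM and 0.179 for TI against TIM). Without TI 1, TI fell below TIM at an exact permutation p of 0.0434 without adjustment.

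Short segments between the thresholds fell into 2 kinds. A first kind lay at the distal ends of chromosomes, with 40 segments in 14 tumours and 0 in AGM. Of these, 32 were in TI, where all 8 tumours had at least 1, and 8 were in 6 of the TIM tumours. Their log2 ratio was exactly 0 in 31, and 29 had more than 50% of their reference bases unknown (N). The neighbouring segment was past a threshold in 28 of the 40, with 21 gains and 7 losses. None of the 40 was past a threshold. No short segment started a chromosome.

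A second kind lay inside chromosomes. Of 69 such segments, 52 had a neighbour past a threshold and 40 had such neighbours on both sides. Among the 55 short segments with a log2 ratio of exactly 0, 41 consisted of N throughout. When segments with over 50% N were left out, the medians became 18 in AGM, 13.5 in TI and 16 in TIM. The order of TI and TIM was then turned (exact permutation p = 0.198).

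Most called short segments had neutral neighbours. Of 286 gains and losses, 209 (73.1%) had neutral segments, of any length, directly on both sides, and 125 had a short neighbour. The median of the 2 neighbours had a median log2 ratio of 0.01 beside gains and 0.00 beside losses. Short segments also followed each other directly. There were 58 runs of 2 or more in 20 samples, which held 174 segments (44.1%), and the longest run held 13.

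Positions repeated across samples. Exactly the same start and end defined a site, and 242 sites were found. Of these, 197 were private to 1 sample and 45 were shared. Sharing by 2 samples was found for 19 sites, by 3 or more for 26 and by 10 or more for 5. Shared sites held 198 segments and private sites 197. Overlapping short segments were merged to 115 loci, and 116 of the 197 private segments (58.9%) lay at loci with short segments of at least 2 samples. Of all short segments, 314 (79.5%) lay at such loci, 13 loci had short segments in all 3 groups, and 81 loci belonged to 1 sample only. Loci of 1 sample held 6 segments in AGM, 49 in TI and 26 in TIM. Many of those in TI came from TI 1, and without that tumour (an alternative chosen after seeing the data) they numbered 29 in TI and 28 in TIM.

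Private segments numbered 4 to 9 in AGM with a median of 8, 3 to 29 in TI with a median of 9.5, and 5 to 15 in TIM with a median of 9. TI 1, with 29, lay far above the others. TI was higher than AGM in 28 of 40 pairs (exact permutation p = 0.135), TIM was higher than AGM in 27 of 40 pairs (exact permutation p = 0.194), and TI and TIM overlapped throughout (exact permutation p = 0.590). If ends were allowed to differ by 20 kb, the exact permutation p for TI against AGM was 0.0272, unadjusted.

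The loci covered 40.7 Mb, or 1.65% of the autosomes. Chr 14 held 111 short segments (28.1% of all, on 5.08% of the autosomal length), and 90 of these were losses. Chr 7 held 57, Chr 13 held 40, Chr 6 held 36 and Chr 4 held 28, while Chr 19 held 0. Of the 115 loci, 27 lay in the last of 10 equal parts of their chromosome and 25 in the second part. Without TI 1, which had a run of short segments in the second part of Chr 8, 93 loci were left, with 27 in the last part and 12 in the second. The distal 1 Mb held 16 loci (13.9%), compared with 0.772% of the autosomal sequence. Of these 16 loci, 13 reach the chromosome's end, where none of the 40 end segments passed a threshold, and 3 of the 16 held a gain or loss.

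Loci differed from the remaining sequence in repeat content, which the choice by length did not use. A 31-base word was called repeated when it occurred more than once on its chromosome. The median share of repeated words per 20 kb bin was 22.8% in the loci and 6.09% over all autosomal bins. More than 50% of the words were repeated in 34.6% of the bins of the loci, in 53.6% of the bins of loci called in 3 or more samples, and in 3.90% of all bins. Among the short losses, 130 of 201 had more than 50% of their words repeated, and among the short gains 28 of 85. The median GC content was 41.1% in the loci and 41.4% over all bins. N bases made up 10.4% of the loci and 2.65% of all bins. The part of read placement in these values was not tested.

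Genes under called short segments were counted by gene family. GENCODE M39 genes that overlapped a short gain or loss numbered 298 of 21111 (1.41%). Of 144 variable genes of the T cell receptor, which encode the part of the receptor that contacts antigen, 58 (40.3%) were covered. Of 40 H2 genes of the major histocompatibility complex 12 were covered, of 70 defensin genes 14, and of 422 zinc finger genes 11. Gene models with a Gm number were covered in 25 of 602. By contrast, 4 of 1187 olfactory receptor genes, 2 of 351 vomeronasal receptor genes and 0 of 216 variable immunoglobulin genes were covered. Of 101 Cyp genes, which encode cytochrome P450 enzymes, 2 (1.98%) were covered. In all, 12 of the 20 listed families had 0 genes covered. The covered H2 and defensin genes all came from TI 1. Of the H2 genes, 4 (H2-Q10, H2-T22, H2-T23 and H2-T24) lay only under a piece at the level of the widely gained Chr 17 of this tumour. By comparison, 54 of the 58 T cell receptor genes were covered in at least 2 samples.

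A site was called recurrent when the same start and end were past a threshold in the same direction in at least 3 samples, and 19 sites met this. Called samples were then counted over each site whatever the ends of their own segment, as those with at least 50% of the site past the threshold. A loss on Chr 5, chr5:110080001-110160000 (80 kb), overlaps Zfp932, a zinc finger gene, the gene model Gm15446 and a further gene model without a symbol. The log2 ratio was -5.32 in all of AGM 1 to AGM 5 and ran from -5.32 to -5.28 in the 8 TIM tumours. In TI it ran from -5.32 to 0.01 with a median of -0.06. TI 8 was at -5.32, TI 1 at -0.99 and TI 3 at -0.93, and the other 5 lay between -0.09 and 0.01. AGM and TIM thus shared 1 level, the level of 0 copies, while TI held tumours near 0, 1 and 2 copies.

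A gain on Chr 7, chr7:137600001-138160000 (560 kb), was carried by 20 of 21 samples. It holds Tcerg1l, a homologue of a transcription elongation regulator, as its only protein-coding gene. AGM 1 to AGM 5 had log2 ratios of 0.99, 1.05, 1.03, 0.93 and 0.86. TIM ranged from 0.75 to 1.09 with a median of 0.89, and TI from 0.01 to 1.01 with a median of 0.96. All samples except TI 2 thus lay well above the threshold, and TI 2 had 0.01. More copies in these samples and fewer copies in the reference cannot be told apart. Only 4.82% of the 31-base words of this stretch were repeated, less than the median bin of the genome.

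On Chr 13 a short gain bordered on a longer short loss in a zinc finger gene cluster. The gain, chr13:65660001-65840000 (180 kb), had log2 ratios of 0.62, 0.84, 0.70, 0.81 and 0.89 in AGM 1 to AGM 5. It was present in 6 of 8 TIM tumours, between 0.59 and 0.69, and was not called in TIM 11 and TIM 12 (0.01 and 0.00). In TI it was called in 0 of 8, with values from -0.07 to 0.27. The loss beside it, chr13:65820001-66600000 (780 kb), covers Zfp998, Zfp997 and Zfp999. It was at -1.00 or -0.99 in all 5 AGM and all 8 TIM, and in TI at -1.03 in TI 1 and -0.99 in TI 8 only. The TI 1 segment had a mean log2 ratio of -2.24, far below its median. Of the 31-base words, 87.5% were repeated in the gain and 89.3% in the loss.

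Chr 14 carried 4 separate lost stretches that were called in all 5 AGM and in at least 7 of 8 TIM. The first, chr14:25860001-26020000 (160 kb), holds Anxa11, an annexin that binds membranes in a calcium-dependent manner, Plac9, Tmem254 and the homeobox genes Cphx1 and Duxbl1. It was at -1.00 in every AGM and TIM sample and called in 4 of 8 TI tumours (TI 2, TI 4, TI 5 and TI 8). Here 9.26% of the words were repeated. The next, chr14:43100001-43280000 (180 kb), holds Gm8126, Gm8127 and 1700001F09Rik. It was at -1.00 in every AGM sample, between -1.00 and -0.88 in TIM, and called in 5 of 8 TI tumours. Its distal part, chr14:43200001-43280000, was deeper in 5 samples, with -3.12, -3.16 and -2.25 in AGM 1, AGM 2 and AGM 3, and -3.16 in TIM 9 and in TIM 12.

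Beyond it lay a short neutral segment of exactly 0 in 16 samples over reference sequence that is N throughout (chr14:43280001-43700000). The third loss, chr14:43700001-43800000 (100 kb), lies directly behind it and holds Gm5799. It was at -1.00 in all AGM and in 7 TIM tumours, and TIM 1 was at 0.01. Only TIM 1 among AGM and TIM thus lacked it. The fourth, chr14:53280001-53380000 (100 kb), lies in the T cell receptor alpha locus and holds 8 variable genes. It was at -5.32 in all 5 AGM, in TIM 7 and in TIM 8. The other 6 TIM tumours lay between -0.95 and -0.77, TI tumours between -0.99 and 0.00.

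The alpha locus of the mouse is known for duplicated blocks of variable genes, whose copies carry the letters d and n in their names. Of the 58 T cell receptor genes under short gains or losses, 27 had names with d and 28 with n, and 15 were covered in 18 samples each. Around the core, chr14:53060001-53280000 and chr14:53380001-53580000 were lost as well. In AGM the log2 ratio was -0.99 to -0.94 in the former and -1.00 in the latter, on either side of the core at -5.32. In these stretches 97.2% and 97.6% of the words were repeated, compared with 63.8% in the core.

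**Figure D3:**
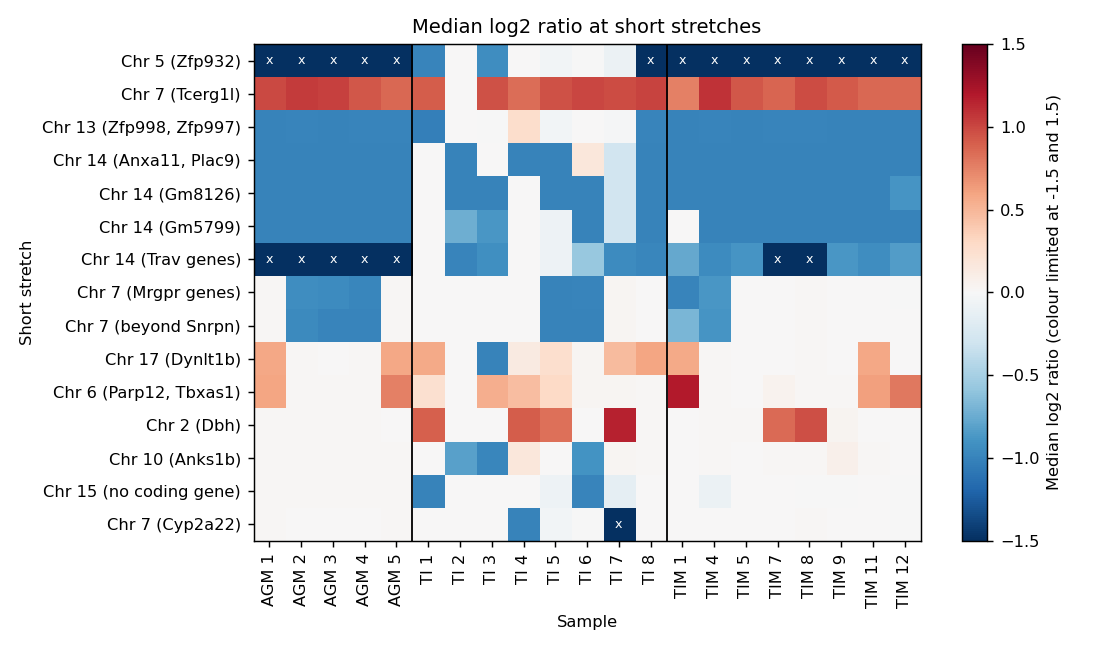
Median log2 ratio (colour, limited as the colour bar shows) over the core of 15 short stretches (rows, named by chromosome and gene) in the 21 samples (columns), with black lines between AGM, TI and TIM. A white x marks ratios below -2. In the upper 7 rows every AGM and TIM sample is changed in the same direction except TIM 1 at Gm5799, while TI tumours vary.

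At the recurrent sites called in all 5 AGM, most TIM tumours carried the same changes, and most TI tumours carried fewer. Keeping 1 site per locus and direction, 9 sites were called in all 5 AGM, of which 8 are described above. TIM tumours had 8 or 9 of these 9. The 7 TI tumours with SH titles had 2 to 6 with a median of 4, and TI 8, the TI tumour with an AGH title, had 8. These counts are a description, since AGM values chose the sites.

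The number of TI and TIM tumours past the threshold was compared at all 19 recurrent sites with Fisher's exact test, two-sided, and 0 sites (0%) differed after BH adjustment. At an unadjusted p below 0.05 there were 3 sites. They were the Chr 5 loss (3 of 8 TI, 8 of 8 TIM) with p = 0.0256 by Fisher's exact test and an adjusted p of 0.162, the Chr 13 loss (2 of 8 TI, 8 of 8 TIM) and the Chr 13 gain (0 of 8 TI, 6 of 8 TIM). Without TI 8 or without TI 1, 3 of the 19 sites passed after adjustment. They were the Chr 5 loss, with an adjusted p of Fisher's exact test of 0.0443 in either case, and both Chr 13 sites. The tumours compared also helped to choose the sites. The Chr 13 gain became a site through AGM 3, TIM 4 and TIM 8, without a TI tumour, and the Chr 13 loss through AGM 5, TI 8, TIM 9 and TIM 12, so their counts are given as a description. With sites chosen in AGM alone, as the same ends in at least 3 AGM samples (an alternative chosen after seeing the data), 8 sites were compared and 0 differed after adjustment. The Chr 5 loss alone had an unadjusted p below 0.05 (p = 0.0256 by Fisher's exact test, 0.205 after adjustment). For these 8 sites 0 also differed without TI 8 or without TI 1, both carriers of the Chr 5 loss, which then had an adjusted p of Fisher's exact test of 0.0559 in either case.

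Over the whole genome, the autosomes were cut at every segment end of any sample into 742 intervals, of which 244 lay in a short segment of at least 1 sample. The log2 ratios of the groups were compared in every interval (exact permutation test of the rank sum, BH over 742). The rank sum does not weigh the size of a difference. At chr13:120020001-120080000, for example, AGM lay from 0.015 to 0.019 and TI from 0 to 0.013, apart but all near 0. An interval that differed is therefore not by itself a gain or loss. Between TI and AGM 22.8% of all intervals differed (9.7% higher and 13.1% lower in TI), and 53 of the 244 (21.7%) in short segments did, 27 higher and 26 lower. With the difference of means in place of the rank sum, 71 intervals differed between TI and AGM, 20 of them in short segments. Between TI and TIM 25.9% of all differed (12.3% higher and 13.6% lower in TI), and 50 of the 244 (20.5%) in short segments did, 27 higher and 23 lower. Between TIM and AGM 0% differed, with 123 of 742 intervals and 38 of the 244 at an unadjusted p below 0.05. The shares in short segments were close to or below the shares over all intervals. With the mean in place of the median log2 ratio, 24 intervals differed between TIM and AGM, 7 of them in short segments.

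Dbh was the only gene of a fixed list of 37 neuroblastoma and model genes that lay in short segments of more than 1 sample. The list included Igf2bp1, Mycn, Gt(ROSA)26Sor, Alk, Trp53 and Cdkn2a, and besides Dbh only Csmd1, a gene with CUB and sushi domains, was hit. The latter lay under a loss of chr8:16740001-16880000 in AGM 2 with a log2 ratio of -1.00. Dbh encodes the enzyme that turns dopamine into noradrenaline, and its regulatory sequence drives the iCRE of this model.

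A short gain covered Dbh (chr2:27055245-27074212, plus strand) in 6 tumours. Its log2 ratio was 0.89 in TI 1, 0.90 in TI 4, 0.83 in TI 5, 1.16 in TI 7, 0.85 in TIM 7 and 0.97 in TIM 8. In the 5 AGM it was 0.01 or 0.02, and the remaining tumours had 0.00 to 0.04. The values thus fell into a group near 4 copies and a group near 2 copies with none between. All 3 groups are labelled CRE +. Called tumours numbered 4 of 8 in TI and 2 of 8 in TIM, a description, since these tumours chose the site. In 4 tumours the gain had the same ends, chr2:27020001-27160000 (140 kb). It was 20 kb shorter at 120 kb in TIM 7 and reached 220 kb in TI 5.

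The gain also covers Sardh, the mitochondrial sarcosine dehydrogenase, and parts of Fam163b and Vav2, a guanine nucleotide exchange factor. Flanking segments lay between 0.00 and 0.03 in 5 of the 6 tumours, and at 0.24 and 0.39 in TI 5. Only 3.10% of its words were repeated. The promoter of Dbh lies within the gain and is shown because the same regulatory region directs the recombinase. It is the RefSeq window of 250 bases before to 50 after the RefSeq gene start, which lies downstream of the GENCODE start given above, from a table on GRCm38.p6, matched here exactly and once on Chr 2 of GRCm39 at chr2:27055269-27055568, plus strand. Capitals mark the letters ATTA, of which it holds 3 (ATTA or TAAT, that is, both strands, with overlaps allowed).
Dbh promoter: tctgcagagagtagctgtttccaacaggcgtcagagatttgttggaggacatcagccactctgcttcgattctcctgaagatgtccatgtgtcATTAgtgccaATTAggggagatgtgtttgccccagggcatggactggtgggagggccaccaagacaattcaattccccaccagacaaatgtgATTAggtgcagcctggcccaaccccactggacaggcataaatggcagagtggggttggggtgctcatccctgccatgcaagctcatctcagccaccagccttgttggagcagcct
At least as many matches were found in 20.04% of the 32851 promoters of this length in the table.

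A pair of losses on Chr 7 was carried by the same 7 samples. The cores of these losses, chr7:47080001-47600000 and chr7:60180001-60400000, lie 12.6 Mb apart. The former holds Mrgpra2a, Mrgpra2b and Mrgpra3, which encode receptors of sensory neurons, and the latter holds no protein-coding gene. Both were lost in AGM 2, AGM 3, AGM 4, TI 5, TI 6, TIM 1 and TIM 4, and neither in the other 14. Log2 ratios in the 7 samples ran from -1.00 to -0.87 in the former and from -1.00 to -0.69 in the latter, and in the other 14 from -0.00 to 0.03 over both.

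Not all of these were short segments, since TIM 4 carried the former in a segment of 1080 kb and TIM 1 the latter in a segment of 1920 kb. A further stretch, chr7:59780001-60000000 (220 kb), overlaps Snrpn, the imprinted gene of a small nuclear ribonucleoprotein. It was at -0.90 in AGM 2, -0.99 in AGM 3, -1.00 in TI 5, -0.97 in TI 6, -0.69 in TIM 1 and -0.88 in TIM 4, whereas AGM 4 had -0.04. Of the 7 samples with the pair, 6 thus also had this loss. The recurrent sites here had 36.3% (Snrpn) and 43.2% of their words repeated. Fisher's exact test gave p = 1 at either site for TI against TIM, with 2 of 8 tumours in each.

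**Figure D4:**
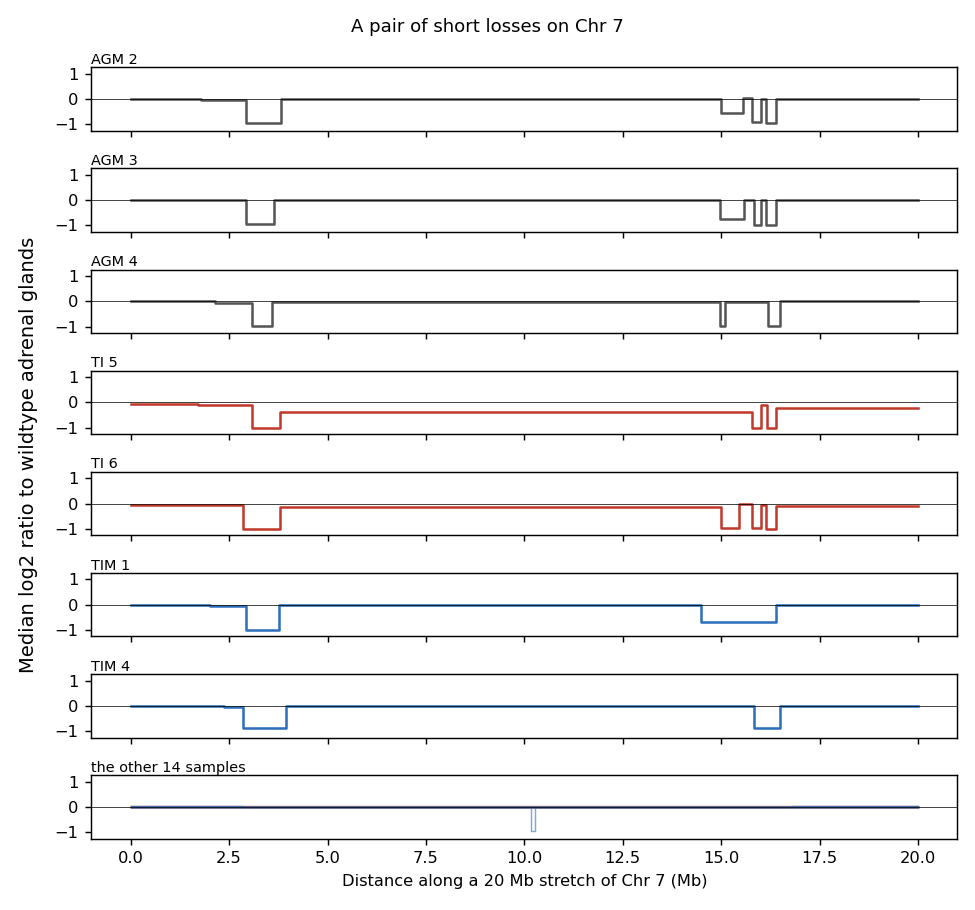
Median log2 ratio along 20 Mb of Chr 7 in the 7 samples with both losses (upper panels) and in the other 14 samples together (lowest panel), coloured by group. The 7 samples come from AGM, TI and TIM, and the step in the lowest panel is a loss of 100 kb in TIM 12 that lies between the 2 positions.

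A few stretches took more than 1 changed level. On Chr 17, chr17:6700001-6840000, with Dynlt1b, a dynein light chain gene, short gains between 0.57 and 0.59 were found in AGM 1, AGM 5, TI 8, TIM 1 and TIM 11. TI 1 (0.57) and TI 7 (0.48) were gained there as part of longer segments, and Chr 17 of TI 1 was gained widely. By contrast, TI 3 had -1.00 over a segment of 160 kb. In the merged locus 81.3% of the 31-base words were repeated and 24.4% of the bases were N. The other 13 samples lay between 0.00 and 0.26. On Chr 6, chr6:39000001-39160000, with Tbxas1 (thromboxane synthase), Parp12 and Kdm7a, a short gain reached 0.59 in AGM 1, 0.76 in AGM 5 and 1.19 in TIM 1. As part of longer segments the stretch was also gained in TI 3 (0.54), TI 4 (0.46), TI 5 (0.30), TIM 11 (0.62) and TIM 12 (0.79), so gains were found in 2 of 5 AGM, 3 of 8 TI and 3 of 8 TIM. The flanks of the TIM 1 segment were themselves gained, at 0.49 and 0.51.

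On Chr 4, chr4:42020001-42220000, with Il11ra3, an interleukin receptor gene, and the chemokine genes Ccl21f and Ccl27al, values of AGM and TIM sat close to the loss threshold. They were -0.39, -0.43, -0.36, -0.36 and -0.56 in AGM 1 to AGM 5 and -0.45 to -0.26 in TIM, with 2 of 5 and 2 of 8 called. TI tumours ranged more widely, from -0.88 to 0.00, with 3 of 8 called (TI 2, TI 5 and TI 7). Of the 60-base words of this core, 38.4% were found there more than once.

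Some losses were found in tumours and in no AGM sample. A loss of 80 kb within Anks1b, a gene for a scaffold protein of synapses, at chr10:89720001-89800000, had the same ends in TI 2, TI 3 and TI 6, with log2 ratios of -0.82, -0.98 and -0.90. It was called in 3 of 8 TI and 0 of 8 TIM, which is a description, since these TI tumours alone made it a recurrent site. A loss on Chr 15, chr15:49680001-50300000, without a protein-coding gene, was at -1.00 in TI 1 and -0.99 in TI 6. Cyp2a22, a cytochrome P450 gene, lay under a loss of 100 kb, chr7:26560001-26660000, at -1.00 in TI 4 and -5.32 in TI 7. A loss at chr2:100300001-100580000 was shared by TI 4 (-0.86) and TIM 8 (-0.96).

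TI 1 carried 36 short segments, 14 of them on Chr 8 and 9 on Chr 17, and without these 2 chromosomes it had 13. A run of 13 short segments on Chr 8, chr8:19360001-22080000, alternated between levels. It held 4 gains at 0.56, 0.59, 0.59 and 0.59, each of 80 to 280 kb and near 3 copies, 3 losses at -0.97, -0.99 and -0.90, and 6 segments between the thresholds. The segments that part the gains lay at exactly 0, with 79.3%, 100% and 100% of their reference bases N. Separate gains and 1 gain cut by N therefore cannot be told apart. In the counts of TI 1 each piece is counted on its own. Of the 32 protein-coding genes of this run, 25 encode defensins, and 14 of them lay under a gain or loss. The 4 gains each hold a Potefam3 gene, and the distal losses hold alpha-defensin genes such as Defa30, Defa23 and Defa42. The other 20 samples had a single segment throughout, with log2 ratios from 0 to 0.09. In this run 69.3% of the 31-base words were repeated.

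**Figure D5:**
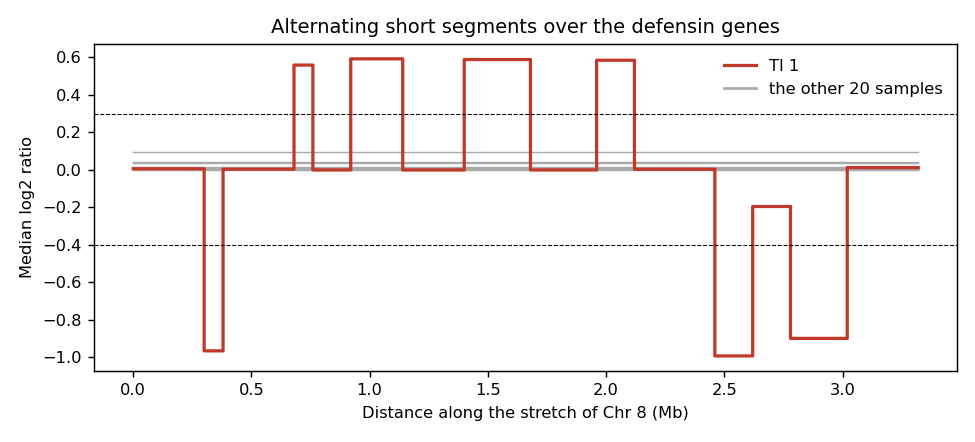
Median log2 ratio over the defensin stretch of Chr 8 and 300 kb on either side in TI 1 (red) and in the other 20 samples (grey), with dashed lines at 0.3 and -0.4. TI 1 steps up 4 times and down 3 times, while the others are flat between 0 and 0.09. Between the steps up TI 1 lies at 0 over reference sequence that is mostly or wholly N.

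Chr 17 of TI 1 was gained over most of its length, and beyond the segment at the chromosome's start its 6 segments of 1 Mb or more lay between 0.50 and 0.58. Within it TI 1 had adjoining short gains at chr17:35600001-35780000 (0.97), chr17:35780001-36360000 (0.54) and chr17:36360001-36440000 (1.35). The middle one thus lay at the level of the chromosome, and the first and the last above it. They hold non-classical class I genes of the major histocompatibility complex, H2-Q4, H2-Q6 and H2-Q7 in the first and H2-T9, H2-T10 and H2-T13 in the last. A loss at chr17:40240001-40500000 (-0.98) with Esp38, a gene of secreted peptides of exocrine glands, was followed by a gain of 800 kb with Crisp1, Crisp2 and Crisp3 (0.48), which encode cysteine-rich secretory proteins. This gain did not exceed the longer segments either, so of 5 short gains of TI 1 on Chr 17, 3 lay above them. TI 1 is the only TI tumour labelled IGF2BP1 +/-, so a property of this animal and its genotype cannot be told apart.

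Of the 10 private segments farthest from 0, 3 lay at loci of at most 2 samples. TIM 11 had a gain of 60 kb near the distal end of Chr 13, chr13:120020001-120080000, with a log2 ratio of 1.57 over Tmem267. Its mean log2 ratio was lower, at 1.08, and 61.7% of its bases are N in the reference. TI 1 had 1.35 over the H2-T genes above and 1.20 at chr17:27460001-27640000, a stretch without a protein-coding gene, both within the gained Chr 17. Of the others, 5 were the Tcerg1l gains of TIM 4, AGM 3 and TI 6 and the Chr 13 losses of TI 1 and AGM 3, which were private by their ends only. TI 2 also had 3 adjoining gains on Chr 12, chr12:55140001-56940000, at 0.99, 0.65 and 0.63, with Srp54 gene copies in the first and the transcription factor genes Pax9, Nkx2-1 and Nkx2-9 in the last. In the first, 99.2% of the 31-base words were repeated. Chr 12 also held 33 gained segments of 1 Mb or more in the series. Whether these short gains exceed a wider gain of Chr 12 in TI 2 was not tested.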

How the data were processed

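Segments of shallow whole genome sequencing were analysed for 21 samples. Per the methods, the authors aligned reads to mm39 and called segments with cn.MOPS against wildtype adrenal glands. The submitters' processing notes name HISAT2 2.1.0, SAMtools 1.10 and cutadapt 2.8. The authors deposited 1 table of segments with the median and the mean log2 ratio to the reference and a copy number class, and the median log2 ratio was used here. Thresholds of 0.3 and -0.4 follow the methods. The methods describe low coverage, while read numbers per sample and window settings are not given in the sources used here. The members and the gene lists were chosen with earlier results of these data known.

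Copies were computed as 2 times 2 to the power of the ratio, which takes the reference to hold 2 copies. Counts per sample were compared with an exact permutation test of the rank sum, two-sided, with Benjamini-Hochberg adjustment over 12 comparisons, which can reach p-values down to 0.00155 (8 against 5) and 0.000155 (8 against 8). Recurrent sites were compared by Fisher's exact test. The sources used here do not state that every sequenced tumour came from a separate animal, so p-values measure the spread between these samples. Named were the first 15 recurrent sites by number of samples and the 10 private segments farthest from 0. The Chr 13 gain, the outer T cell receptor sites, the pair of Chr 7 losses, the runs of TI 1 and the Chr 2, Chr 4, Chr 6, Chr 12, Chr 15 and Chr 17 stretches were chosen after their values were seen. At 1 site the values are not reported here, but it enters all counts. Genes came from GENCODE M39 and sequences from GRCm39. Alternatives covered the length limit, the thresholds, the definition of shared ends, mean ratios, left-out samples and groups by title or site. Scripts ran under Python 3.11.15, with scipy 1.17.1 for the tests, numpy 2.4.6 and pandas 2.3.3 for the tables, and figures were drawn with matplotlib 3.10.9. The tests were tested on simulated data.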

Additional observations from a re-analysis of the deposited data

Results flagged for a closer look

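Within groups, 14 of 63 sets of values had 1 sample far from the others by Dixon's test. Chance alone gives about 1 in 20, or 3.15 of 63, for independent sets of normally distributed values. Some of these sets overlap and some hold discrete copy levels, so the number flagged cannot be judged against this. TI 1 stood apart from the other TI tumours with 36 short segments, 12 short gains and 29 private short segments. TI 8 stood apart at the Chr 5 loss of Zfp932 with a log2 ratio of -5.32, the level of AGM and TIM. At the same loss AGM 2 (-5.321) and TIM 9 (-5.28) lay apart from their groups, which otherwise had values of -5.32. These 2 sets lie wholly at the lower limit of the values, where the depth of a loss is not resolved, so the gaps carry no information. TI 2 was the only TI tumour without the Tcerg1l gain (0.0074). TIM 1 was the only TIM tumour without the Chr 14 loss of Gm5799 (0.0085, at either of its distal ends). TIM 12 had the weakest loss at Gm8127 (-0.88). The remaining ones were AGM 4 at the Gm5799 loss (-1.0002 at both ends), AGM 5 at Dbh (0.0079) and TIM 9 at Anks1b (0.080).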

How the results depend on the processing

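Under the alternatives, 179 values of the main results stayed on the same side of the threshold (an unadjusted p of 0.05 for counts per sample) with the same sign (within 1.5 times for counts), 16 changed sign, 7 came to pass the threshold, 3 no longer passed it and 6 moved by more. For the number of short segments, TI against AGM was turned at limits of 0.5 Mb (exact permutation p = 0.922) and 2 Mb (0.860), with the difference of means (0.920) and, leaving out 1 sample, within a range of 0.430 to 1. TI against TIM was turned without segments over 50% N (exact permutation p = 0.198, added after seeing the data) and outside the adrenal gland (0.645). Gains of TIM against AGM were turned at 0.5 Mb (exact permutation p = 1) and at thresholds of 0.5 and -0.6 (0.969), and ranged from 0.505 to 1 leaving out 1 sample. Gains of TI against TIM had an unadjusted exact permutation p of 0.0434 in TI labelled +/+ alone, that is without TI 1. Losses of TI against AGM ranged from an exact permutation p of 0.0101 without AGM 5 to 0.0586 without AGM 2 or AGM 3. Losses of TIM against AGM had an unadjusted p of 0.0350 with the difference of means and ranged from 0.0222 without AGM 5 to 0.160 without AGM 2. Private segments of TI against AGM were below an unadjusted p of 0.05 at 0.5 Mb (exact permutation p = 0.0435), with ends within 20 kb (0.0272) and with 50% reciprocal overlap (0.0280), and TIM against AGM was turned at 0.5 Mb (0.963). With the difference of means 71 intervals differed between TI and AGM, 20 in short segments, and with mean ratios 24 differed between TIM and AGM, 7 in short segments. Of the recurrent sites, 3 passed after adjustment in TI of SH titles alone and 3 without TI 1. In both cases they were the Chr 5 loss and both Chr 13 sites, which the tumours compared helped to choose. With sites chosen in AGM alone 0 passed, also without TI 8 or without TI 1. The causes were not tested. Same replicate numbers did not pair the samples (r from -0.38 to 0.21). With a replicate block the exact permutation p was 0.75 for short segments and 0.875 for gains of TI against AGM, 0.125 for losses of TI against AGM, and 1 for gains of TIM against AGM and of TI against TIM. These groups share few numbers, so the block cannot reach p-values as low as the tests without it. The grid of 20 kb limits the shortest segments, and a part of the low read depth, not given per sample, was not tested.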
